A study of Homo sapiens with 6 samples.

Results

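The aldo-keto reductases (AKRs) were examined in A549 cells and in their cisplatin-resistant derivative, A549/DDP. A549 is an established line of human lung adenocarcinoma. The 10 genes taken were AKR1A1, AKR1B1, AKR1B10, AKR1B15, AKR1C1, AKR1C2, AKR1C3, AKR1E2, AKR7A2 and AKR7A3. They were chosen as named family members and not by a filter on their values, though earlier results of these data were known. Their gene IDs were looked up in GENCODE release 44, and 9 of them had values in the tables, with AKR7A3 the exception. These 9 genes held 43 of 81818 rows, where a row is a transcript given by its gene ID and genomic span, and the tables held 30061 gene IDs in all. Total RNA of each line was sequenced in 3 libraries after rRNA depletion, with a kit that keeps the strand. Both lines were at passages 6 to 8 and grew in the same medium, to which 1 µg/mL cisplatin (DDP) was added for A549/DDP only. The labels write the resistant line as A549/DPP, while their growth protocol writes A549/DDP. Exposure to the drug and resistance therefore cannot be told apart here. Only 1 parental and 1 resistant line were sequenced, and the labels do not say whether the libraries of a line came from separate cultures, so p-values measure only the spread between these libraries.

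AKRs are enzymes of the cytosol that use NADPH to reduce aldehydes and ketones to alcohols. The substrates of the AKR1C enzymes include steroid hormones and prostaglandins, those of AKR1B10 include retinal and the aldehydes of lipid peroxidation, and AKR1B1 (aldose reductase) turns glucose to sorbitol in the polyol pathway. Several AKR genes are known targets of NRF2, the transcription factor of the antioxidant response, and A549 cells are known for a mutated KEAP1, the inhibitor of NRF2, and for high AKR levels.

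The AKR1C genes are near copies, which bears on every value below because a read from a shared stretch can be given to more than 1 gene. The coding sequence of AKR1C1 was 98.0% identical to that of AKR1C2, with 19 differing positions over 969 bases, and 91.4% identical to that of AKR1C3. AKR1C2 and AKR1C3 were 91.0% identical. The first 90 coding bases of the canonical GENCODE transcripts show how few bases separate them, with the 11 positions that are not the same in all 3 genes in capitals.
AKR1C1: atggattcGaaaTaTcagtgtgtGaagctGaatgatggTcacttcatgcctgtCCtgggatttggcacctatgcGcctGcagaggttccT
AKR1C2: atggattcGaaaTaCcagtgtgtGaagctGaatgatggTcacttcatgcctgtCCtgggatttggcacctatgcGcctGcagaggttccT
AKR1C3: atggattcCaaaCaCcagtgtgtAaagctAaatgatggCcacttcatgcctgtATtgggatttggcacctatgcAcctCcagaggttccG
The listed rows were not the coding transcripts themselves. Of the 43 rows, 28 had the span of a transcript of a coding gene with no defined coding sequence, 15 that of a retained intron and 0 that of a coding transcript. Some of them, such as AKR1C2-208, lie in sequence that is not shared with annotated transcripts of other genes. Exon junctions of 3 rows are shown because the results turn on them, with 30 bases on each side of the junction and the bases of the upstream exon in capitals.
AKR1C2-208: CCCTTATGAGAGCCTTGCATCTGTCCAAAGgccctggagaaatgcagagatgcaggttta
AKR1C3-211: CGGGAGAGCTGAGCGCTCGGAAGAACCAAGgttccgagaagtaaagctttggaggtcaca
AKR1C3-210: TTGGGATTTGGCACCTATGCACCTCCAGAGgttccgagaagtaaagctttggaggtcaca
AKR1C2-208 joins chr10:5014903-5015048 to chr10:5013307-5013620 on the minus strand (GRCh38), upstream of the AKR1C2 coding sequence, and 0 of its 31-base words occur in a transcript of another gene. AKR1C3-211 and AKR1C3-210 join the same exon, chr10:5096410-5096577 on the plus strand, to different first exons. That of AKR1C3-211 is far upstream at chr10:5035354-5035616, and that of AKR1C3-210 is at chr10:5094418-5094528, which holds the start of the coding sequence printed above. Of the 30 31-base words that cross the printed junction, 8 occur in another gene for AKR1C3-210 and 0 for AKR1C3-211. The junction printed for AKR1C3-210 is also that of AKR1C3-204, and the AKR1C3 coding sequence printed above crosses it. It therefore does not identify AKR1C3-210 within its gene, and reads across junctions were not counted.

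Values were deposited as FPKM (fragments scaled to transcript length and to the number of mapped fragments), and the read depth behind them is unknown. They summed to 58042 to 62589 FPKM per A549 library and to 65142 to 68665 FPKM per A549/DDP library. The first principal component of the tested rows (39.8% of the variance) separated the lines, and the second (18.2%) set A549 replicate 2 apart from the other libraries. Of 6 epithelial markers, all had rows, and their summed level was 859 to 1149 FPKM in A549 and 2077 to 2656 FPKM in A549/DDP, mostly KRT8, KRT18 and KRT7. The sum was carried by KRT8, which rose from 419 ± 137 to 1755 ± 277 FPKM (mean ± SD, n = 3 libraries; adjusted p = 0.00423 by limma), and its part in the AKR results was not tested. CDH1 (3.21 ± 0.936 and 18.5 ± 10.4 FPKM) and KRT18 (179 ± 55.9 and 293 ± 29.3 FPKM) had higher means in A549/DDP and were not called. KRT7 (399 ± 189 and 273 ± 6.97 FPKM) and EPCAM (1.25 ± 0.953 and 0.845 ± 0.801 FPKM) had lower means there and were not called, and KRT19 (0.397 ± 0.103 and 0.197 ± 0.103 FPKM) was not tested. Endothelial and alveolar type II markers that had rows (3 and 3) were at 0 in every library, among them SFTPB and SFTPC, which mark alveolar type II cells. A listed 0 does not show that a gene is silent here, for the reason given below with CBR1 and CBR4. Fibroblast markers summed to at most 0.964 FPKM and leukocyte markers to at most 0.112 FPKM.

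Tests used limma on log2(FPKM + 1) over all features that reached 0.5 FPKM in at least 3 of the 6 libraries, and a log2 fold change below is A549/DDP against A549 on that scale, which understates the change of low features. A feature was called at an adjusted p under 0.01 (Benjamini-Hochberg over all features tested) and an absolute log2 fold change over 1. An exact permutation test of 3 against 3 libraries cannot go below p = 0.1.

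AKR1B10, AKR1C1 and AKR1C2 were higher in A549/DDP, while the sums of the other tested members were not called. Summed over their rows, these 3 of 8 tested genes were called higher, against 1.39% of 10591 gene sums, and 0 of 8 were called lower, against 0.963%. No gene sum of the family with a negative fold change had an unadjusted p under 0.05 in limma. The median log2 fold change was 0.08 over the 8 members and 0.17 over all gene sums. In bulk RNA, a change in the number of cells that express a gene and in the RNA per cell cannot be told apart. The 9 members together summed to 383 ± 42.3 FPKM in A549 and 721 ± 40.8 FPKM in A549/DDP, a ratio of 1.88. Without A549 replicate 2, the same 3 gene sums were called, with log2 fold changes of 2.75 for AKR1B10, 2.34 for AKR1C1 and 1.91 for AKR1C2.

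**Figure D1:**
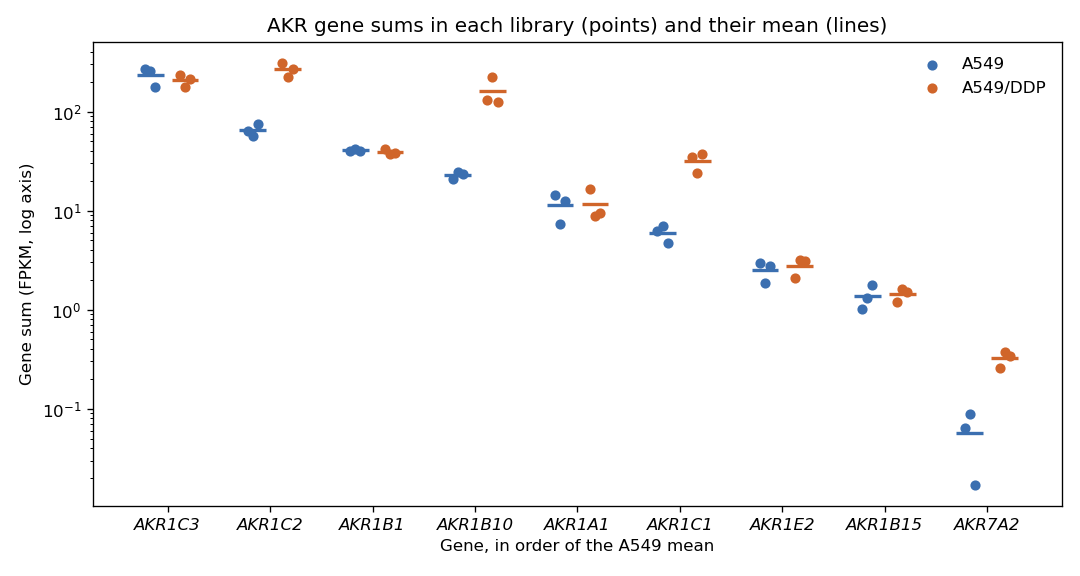
Gene sums of the 9 members with rows, in FPKM on a log axis, for the 3 A549 libraries (blue) and the 3 A549/DDP libraries (orange), with lines at the means. For AKR1C2, AKR1B10, AKR1C1 and AKR7A2 all A549/DDP points lie above all A549 points, and for the other 5 genes the lines overlap. Over all tested gene sums, 2310 of 10591 had every A549/DDP library above every A549 library.

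AKR1C1 and AKR1C2 encode hydroxysteroid dehydrogenases, of which AKR1C1 inactivates progesterone and AKR1C2 dihydrotestosterone. The AKR1C2 sum was 63.8, 56.0 and 75.3 FPKM in the A549 libraries and 305, 224 and 268 FPKM in the A549/DDP libraries. The lowest A549/DDP library was thus well above the highest A549 library, and the means (65.0 ± 9.70 and 266 ± 40.6 FPKM) differed by a ratio of 4.09 (log2 fold change 2.01, SE 0.22, adjusted p = 0.00196 by limma). The AKR1C1 sum was 6.16, 7.01 and 4.74 FPKM in A549 and 34.7, 24.0 and 37.1 FPKM in A549/DDP. It was also higher in each A549/DDP library, by a ratio of 5.35 between the means (log2 fold change 2.23, SE 0.26, adjusted p = 0.00263 by limma). AKR1C1 is among the genes that the study chose on these lines, so its rise is not independent evidence of that choice. Since reads of these genes can be exchanged, their joint sum was also formed, and it was 71.0 ± 8.56 FPKM in A549 and 298 ± 46.3 FPKM in A549/DDP, a ratio of 4.20. The AKR1C1 call ended when replicate 1 or 3 of either line was left out (adjusted p up to 0.0198 by limma), and the AKR1C2 call when replicate 1 or 3 of A549/DDP was (up to 0.0167).

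The rows of AKR1C2 fell into sequence that annotated AKR1C1 transcripts share and sequence that they mostly do not. AKR1C2-204, a retained-intron transcript over the coding part of the gene (chr10:4989789-5004023), held most of the sum, with 50.9, 42.4 and 63.2 FPKM in A549 and 201, 132 and 158 FPKM in A549/DDP. Of its 31-base words 63.0% occur in another gene, AKR1C1 foremost, and on the other strand it overlaps a long non-coding RNA gene (ENSG00000224251). Its rise (log2 fold change 1.63, SE 0.26) was not called (adjusted p = 0.0217 by limma). The other 4 tested rows (AKR1C2-205, AKR1C2-207, AKR1C2-208 and AKR1C2-210) lie upstream of it between chr10:5005995 and chr10:5018031, hold 0% coding sequence, and share between 0% and 2.75% of their 31-base words with another gene. All 4 were higher in every A549/DDP library, against 18.9% of all tested rows, and 3 of them were called, against 0.353%.

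AKR1C2-207 was at 1.86, 0.765 and 0.141 FPKM in A549 and at 19.6, 19.1 and 17.5 FPKM in A549/DDP (log2 fold change 3.46, SE 0.37, adjusted p = 0.00612 by limma). AKR1C2-205 was at 0.671, 2.33 and 0.886 FPKM in A549 and at 20.0, 13.0 and 20.7 FPKM in A549/DDP (3.08, SE 0.36, 0.00792). AKR1C2-208, whose junction is printed above, was at 4.99, 3.28 and 2.35 FPKM in A549 and at 30.1, 25.7 and 31.8 FPKM in A549/DDP (2.77, SE 0.31, 0.00712). These 3 rows ran from a few FPKM or less to levels between 13.0 and 31.8 FPKM. AKR1C2-210, which shares 2 exons with AKR1C2-207, was at 5.44, 7.18 and 8.69 FPKM in A549 and at 34.6, 34.2 and 39.6 FPKM in A549/DDP, and missed the threshold (2.21, SE 0.28, 0.0103). The called rows of AKR1C2 thus lie in sequence that annotated transcripts of its near copies do not share. Genomic sequence and unannotated transcripts were not searched, so an exchange of reads with them was not tested. In the share of the AKR1C2 sum, AKR1C2-204 went from 79.8% ± 4.10 in A549 to 61.3% ± 3.93 in A549/DDP, and AKR1C2-207 from 1.49% ± 1.37 to 7.15% ± 1.18. The changes of these rows against the other rows of the gene were not called (adjusted p = 0.0515 for AKR1C2-204 and 0.128 for AKR1C2-207 by limma's diffSplice test). A sixth row, AKR1C2-206, stayed under 0.0001 FPKM in every library.

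AKR1C1 had 2 rows, both in sequence that is partly shared. AKR1C1-205 (chr10:4963253-4977950) was at 5.40, 3.79 and 3.13 FPKM in A549 and at 18.3, 13.2 and 21.7 FPKM in A549/DDP, and 63.2% of its 31-base words occur in another gene. AKR1C1-204 (chr10:4965491-4967048), with 21.8% shared, was at 0.762, 3.22 and 1.61 FPKM in A549 and at 16.4, 10.8 and 15.4 FPKM in A549/DDP. For both, every A549/DDP library was above every A549 library, yet neither row was called (log2 fold change 1.87, SE 0.32, adjusted p = 0.0255 and 2.48, SE 0.38, 0.0184 by limma). No difference in change between these rows was called (difference 0.61, adjusted p = 0.673 by diffSplice).

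AKR1C3, which makes testosterone from androstenedione and reduces prostaglandins D2 and H2, had the highest gene sum of the members in A549. The make-up of its listed rows, which are not coding transcripts, changed more than its sum. The sum was 268, 257 and 175 FPKM in A549 and 236, 176 and 212 FPKM in A549/DDP. The lines overlapped, and the means (233 ± 50.6 and 208 ± 30.04 FPKM) were not called different (log2 fold change -0.15, SE 0.24, adjusted p = 0.726 by limma). AKR1C3-211, the transcript with the far upstream first exon (chr10:5035354-5102210), was at 253, 236 and 160.1 FPKM in A549 and at 126, 99.1 and 111 FPKM in A549/DDP. It was lower in every A549/DDP library but not called (log2 fold change -0.92, SE 0.24, adjusted p = 0.0774 by limma). Its share of the gene sum was 94.4%, 92.0% and 91.4% in A549 and 53.5%, 56.3% and 52.5% in A549/DDP.

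Rows of AKR1C3 at the exon that holds the start of the coding sequence, and AKR1C3-207 just downstream of it, were higher in A549/DDP. AKR1C3-210, a retained-intron transcript (chr10:5094418-5099893), was at 4.15, 7.27 and 5.21 FPKM in A549 and at 46.1, 35.4 and 41.2 FPKM in A549/DDP, and was called higher (log2 fold change 2.70, SE 0.30, adjusted p = 0.00678 by limma). AKR1C3-204 (chr10:5094414-5098176) was at 3.14, 5.23 and 0.597 FPKM in A549 and at 42.5, 25.4 and 35.6 FPKM in A549/DDP, but its wider spread kept it from a call (3.33, SE 0.51, 0.0188). AKR1C3-207 (chr10:5096145-5097528), which lies within the span of both, was at 1.31, 1.90 and 3.09 FPKM in A549 and at 11.5, 8.17 and 11.6 FPKM in A549/DDP (1.91, SE 0.32, 0.0239). All A549/DDP libraries lay above all A549 libraries in each of these rows, against 18.9% of all tested rows. Without AKR1C3-211 the gene sum was 14.9, 20.5 and 15.1 FPKM in A549 and 109.8, 77.0 and 100.5 FPKM in A549/DDP, a ratio of 5.69. Its log2 fold change was 2.44 (adjusted p = 0.00102 by limma, with every gene of several rows summed without its most abundant row). AKR1C3-211 was the only tested row of the gene with a negative fold change, so this rise restates that of the rows left and is not further evidence. AKR1C3-208, at the downstream end of the gene (chr10:5105275-5107686), was at 5.35 ± 0.608 FPKM in A549 and 8.45 ± 1.61 FPKM in A549/DDP (0.57, SE 0.27, 0.280). AKR1C3-205, which shares the far upstream exon, was at 0.853 ± 0.704 and 1.25 ± 0.627 FPKM and overlapped between the lines, while AKR1C3-203 was listed at 0 throughout A549 and reached 0.153 to 0.426 FPKM in A549/DDP. Of the 31-base words of AKR1C3-211, AKR1C3-210, AKR1C3-204 and AKR1C3-207, between 10.2% and 19.1% occur in another gene, and for AKR1C3-208 it is 0%.

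**Figure D2:**
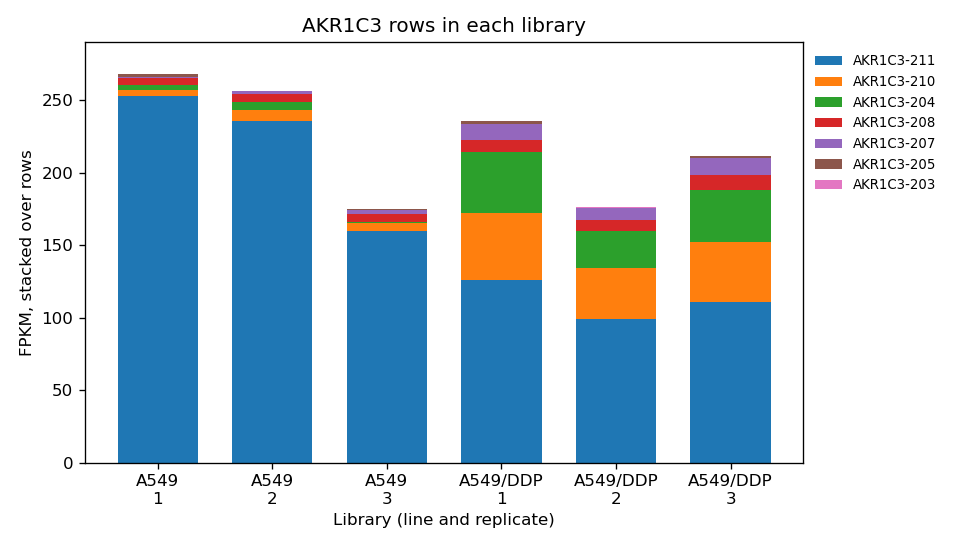
AKR1C3 rows stacked by FPKM in each of the 6 libraries. AKR1C3-211 (blue) falls from 160.1 to 253 FPKM in A549 to 99.1 to 126 FPKM in A549/DDP, while AKR1C3-210 (orange) and AKR1C3-204 (green) take up 25.4 to 46.1 FPKM each in A549/DDP, so the total bars overlap between the lines.

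Whether rows of a gene changed by unequal amounts was tested with diffSplice, which sets a row against the average of the other tested rows of its gene. Of 33 member rows tested, 2 differed, against 0.61% of 15564 rows. Both were AKR1C3 rows, AKR1C3-211 with a difference in log2 fold change of -2.68 (adjusted p = 9.92e-05) and AKR1C3-204 with 2.42 (adjusted p = 0.000316). AKR1C3-210 (1.66, 0.0169) and AKR1B1-204 (1.11, 0.0121) missed the threshold. In simulated data this test called rows of unchanged genes more often than its threshold allows. The simulated rows were drawn independently, while real rows of a gene can share reads, so its error rate in these data is unknown. An alternative chosen after seeing the data, limma on the log ratio of a row to the sum of the other rows with the spread of that ratio, gave -3.36 for AKR1C3-211, 3.72 for AKR1C3-204 and 3.13 for AKR1C3-210, all with an adjusted p of 0.0195, and only 1 of 15564 rows was under 0.01.

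**Figure D3:**
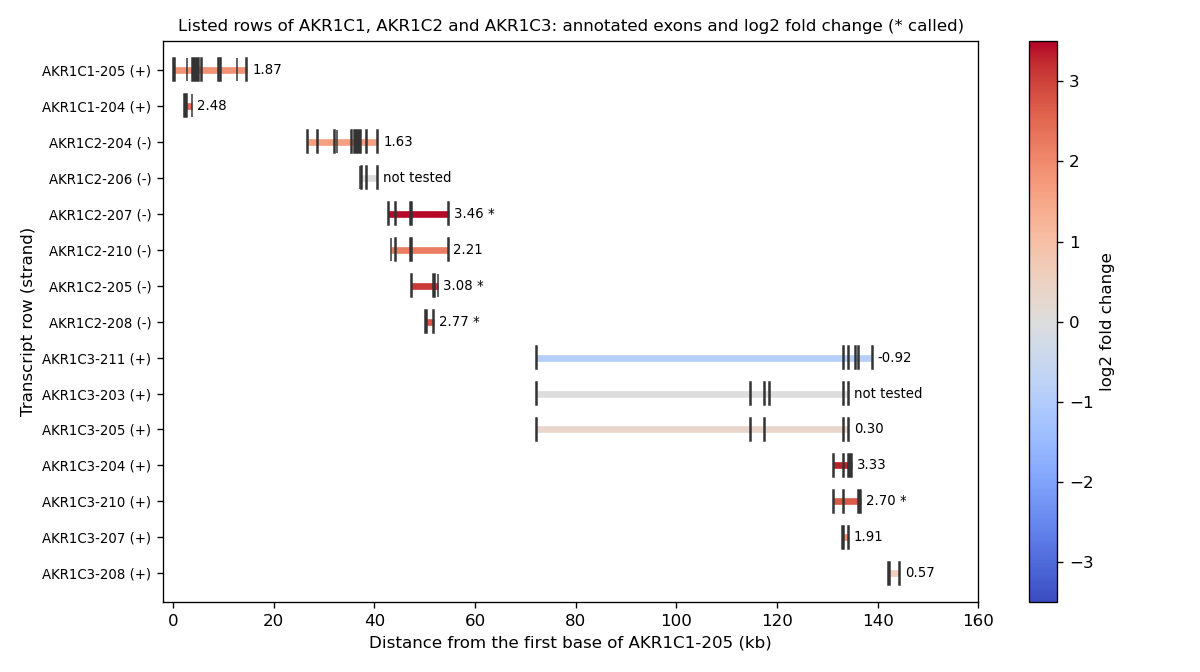
Rows of AKR1C1, AKR1C2 and AKR1C3 drawn to scale in kb from the first base of AKR1C1-205, with exons as black bars of a minimum width and the span coloured by log2 fold change (number at right, asterisk for a call). The upstream rows of AKR1C2 and AKR1C3-204, AKR1C3-207 and AKR1C3-210 have log2 fold changes of 1.91 to 3.46, and AKR1C3-211, which spans from the far upstream exon, has -0.92.

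AKR1B10, which reduces retinal and lipid aldehydes and is known as an NRF2 target of lung tumours, had the largest fold change of the gene sums of the family. Its sum was 20.7, 24.3 and 23.5 FPKM in A549 and 130.03, 225 and 124 FPKM in A549/DDP. All A549/DDP libraries were above all A549 libraries, with means of 22.8 ± 1.85 and 160 ± 56.4 FPKM and a ratio of 7.00 (log2 fold change 2.70, SE 0.27, adjusted p = 0.00140 by limma). A549/DDP replicate 2 stood apart, and it did so through AKR1B10-204 alone. That row (chr7:134537580-134541408) was at 0.117, 3.003 and 3.014 FPKM in A549 and at 20.6, 129 and 19.8 FPKM in A549/DDP, and was not called (3.89, SE 0.81, 0.0434). Without it the gene sum had a log2 fold change of 2.26 (adjusted p = 0.000837 by limma), and without A549/DDP replicate 2 the whole sum had 2.43 (adjusted p = 0.00640).

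AKR1B10-203, which shares its last base with AKR1B10-204 and starts slightly downstream of it (chr7:134537613-134541408), was called higher. It was at 14.1, 15.4 and 12.9 FPKM in A549 and at 81.4, 67.2 and 73.6 FPKM in A549/DDP (log2 fold change 2.31, SE 0.25, adjusted p = 0.00617 by limma). AKR1B10-202, over the upstream part of the gene (chr7:134527620-134537087), was at 6.47, 5.86 and 7.59 FPKM in A549 and at 28.0, 29.0 and 30.97 FPKM in A549/DDP, and missed the threshold (1.99, SE 0.26, 0.0112). In A549/DDP replicate 2 neither of these rows stood apart. The spans of AKR1B10-203 and AKR1B10-204 overlap almost in full. The coding sequences of AKR1B10 and its neighbour AKR1B15 were 85.9% identical, and between 16.9% and 35.0% of the 31-base words of the AKR1B10 rows occur in another gene. AKR1B15, a mitochondrial member with estradiol dehydrogenase activity, had 1 row, at 1.01, 1.32 and 1.77 FPKM in A549 and at 1.20, 1.60 and 1.502 FPKM in A549/DDP. Its lines overlapped (log2 fold change 0.05, SE 0.23, adjusted p = 0.910 by limma).

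AKR1B1, AKR1A1 and AKR1E2 did not pass the test in any row or sum. The AKR1B1 sum was 39.7, 42.3 and 40.0 FPKM in A549 and 41.8, 37.7 and 38.5 FPKM in A549/DDP (log2 fold change -0.05, SE 0.20, adjusted p = 0.904 by limma). Relative to its level it had the tightest libraries of the members in A549 and in A549/DDP, at 40.7 ± 1.44 and 39.3 ± 2.16 FPKM. Of its 11 rows 9 were tested, and their log2 fold changes had both signs, with none called. AKR1B1-205, the most abundant, was at 20.9, 22.9 and 25.4 FPKM in A549 and at 18.5, 17.0 and 17.5 FPKM in A549/DDP (-0.36, SE 0.25, 0.454). AKR1B1-204, a retained intron at the upstream end of the gene (chr7:134451294-134459134), was at 4.87, 2.45 and 2.50 FPKM in A549 and at 10.3, 6.02 and 6.39 FPKM in A549/DDP (1.02, SE 0.34, 0.140). AKR1B1-213, AKR1B1-209, AKR1B1-206 and AKR1B1-214 had means between 1.68 and 5.24 FPKM in either line and adjusted p-values of 0.395 or more.

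The AKR1A1 sum, an aldehyde reductase gene active in most tissues, was 14.4, 7.28 and 12.4 FPKM in A549 and 16.6, 8.79 and 9.36 FPKM in A549/DDP (log2 fold change 0.02, SE 0.33, adjusted p = 0.978 by limma). Its libraries differed within a line by more than the lines did. The rows AKR1A1-208, AKR1A1-213 and AKR1A1-205 carried most of it, with means of 4.18, 2.41 and 2.28 FPKM in A549 and 2.87, 4.04 and 1.77 FPKM in A549/DDP, and overlapped between the lines. The AKR1E2 sum was 2.99, 1.85 and 2.77 FPKM in A549 and 2.06, 3.18 and 3.12 FPKM in A549/DDP (0.10, SE 0.26, 0.835). Its row AKR1E2-209 was at 1.72 ± 0.310 and 1.61 ± 0.321 FPKM. AKR7A2, which reduces succinic semialdehyde and aflatoxin dialdehyde, was low throughout, at 0.0643, 0.0875 and 0.0170 FPKM in A549 and at 0.258, 0.371 and 0.342 FPKM in A549/DDP. Its A549/DDP libraries were all above its A549 libraries, but the gene stayed below the minimum level and was not tested.

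In order of level in A549, the means ran from AKR1C3 (233 FPKM) through AKR1C2 (65.0), AKR1B1 (40.7), AKR1B10 (22.8), AKR1A1 (11.4), AKR1C1 (5.97), AKR1E2 (2.54) and AKR1B15 (1.36) to AKR7A2 (0.0563). No neighbours in that order overlapped in their libraries, and the nearest as a ratio were AKR1A1 (lowest library 7.28 FPKM) and AKR1C1 (highest library 7.01 FPKM). In A549/DDP the order was AKR1C2 (266), AKR1C3 (208), AKR1B10 (160), AKR1B1 (39.3), AKR1C1 (31.9), AKR1A1 (11.6), AKR1E2 (2.79), AKR1B15 (1.43) and AKR7A2 (0.324). There AKR1C2, AKR1C3 and AKR1B10 overlapped with each other in their libraries, and no other neighbours did. FPKM is per length of transcript, so these levels can be set side by side, but they are sums over non-coding rows and not levels of the coding mRNAs.

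Over all rows of the family, 34 of 43 passed the filter on low values. Of these, 5 were called higher, against 0.353% of 20663 rows, and 0 were called lower, against 0.198%. In the lower direction, 1 row (AKR1C3-211) was under an unadjusted p of 0.05 in limma. All A549/DDP libraries lay above all A549 libraries in 15 of 34 rows (18.9% of all rows) and below them in 4 of 34 (8.91% of all rows), and 15 rows overlapped. The 4 were AKR1C3-211, AKR1B1-205, AKR1B1-208 and AKR1B1-214. The median log2 fold change was 0.48 over the 34 rows and 0.14 over all rows. None of the 5 row calls held when any single library was left out (adjusted p between 0.0144 and 0.0440 by limma), while their log2 fold changes stayed between 2.24 and 3.80. The 9 rows below the filter reached at most 0.789 FPKM in any library.

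**Figure D4:**
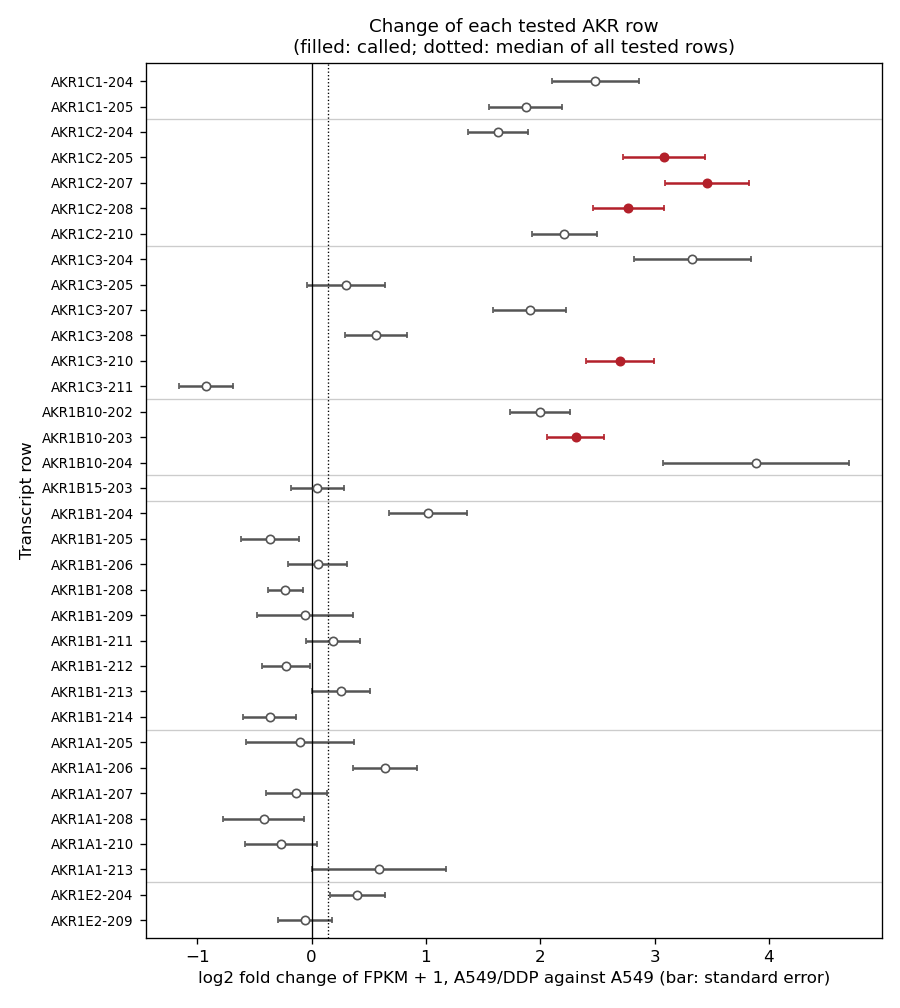
log2 fold change (A549/DDP against A549, on log2(FPKM + 1)) of the 34 tested rows, grouped by gene, with bars of 1 standard error, filled points for the 5 called rows and a dotted line at the median of all rows (0.14). The AKR1C1, AKR1C2 and AKR1B10 rows lie right of the line, AKR1C3 rows lie on both sides, and the AKR1B1, AKR1A1, AKR1B15 and AKR1E2 rows scatter about it.

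Of the remaining genes of the AKR superfamily, AKR1C4, AKR1D1 and KCNAB1 were listed at 0 in every library. The carbonyl reductase genes CBR1 and CBR4, known to be broadly expressed, were listed at 0 as well, so a 0 in these tables does not show that a gene is silent. The gene sums of AKR1C8 and AKR7L reached at most 0.280 and 0.0193 FPKM. KCNAB2 and KCNAB3, potassium channel subunits of the same fold, were tested and not called (log2 fold changes -0.04 and -0.14). The pseudogene AKR1C7P, next to the AKR1C genes, was at 1.34, 2.41 and 0.949 FPKM in A549 and at 0.338, 2.76 and 1.00 FPKM in A549/DDP, with overlapping lines (log2 fold change -0.21, adjusted p = 0.770 by limma).

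Genes that share substrates, cofactor or control with the AKRs were counted in the same fit. Over all 10591 gene sums, 1.39% were called higher, 0.963% were called lower and 27.1% had an unadjusted p under 0.05 in limma, and the counts below are to be read against these shares. Of 16 tested short-chain carbonyl reductases, the other large family with these substrates, 0 were called in limma and 4 had an unadjusted p under 0.05, with a median log2 fold change of 0.24. The most abundant were HSD17B4 (49.6 ± 20.0 and 59.0 ± 22.8 FPKM) and HSD17B12 (20.9 ± 3.85 and 37.4 ± 1.12 FPKM; log2 fold change 0.82, adjusted p = 0.0563). Of 12 genes that supply NADPH, 1 was called higher and 0 lower, and 5 had an unadjusted p under 0.05, with a median of 0.56. The called gene was PGD, a dehydrogenase of the pentose phosphate pathway, at 3.82 ± 0.924 FPKM in A549 and 13.2 ± 0.817 FPKM in A549/DDP (log2 fold change 1.58, SE 0.24, adjusted p = 0.00713 by limma). PGD was also the only called gene among 17 tested NRF2 targets outside the family, whose median was 0.73, and 11 of the 17 had an unadjusted p under 0.05. GCLM (2.16, adjusted p = 0.0103) and ALDH3A1 (1.13, adjusted p = 0.0121), named here after their values were seen, lay nearest to the threshold, and the study chose ALDH3A1 on these lines. The tested targets with negative log2 fold changes were ABCC3 (-0.76), FTH1 (-0.34) and TRIM16 (-0.05), which were not called. ABCC3 was at 57.2 ± 12.9 FPKM in A549 and 33.1 ± 6.53 FPKM in A549/DDP, lower in every A549/DDP library. Among 5 tested NRF2 regulators, CUL3, the ubiquitin ligase scaffold that works with KEAP1, was called higher, from 5.24 ± 1.44 to 17.8 ± 2.39 FPKM (1.61, SE 0.26, 0.00896), and 0 were called lower, with a median of -0.12.

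Of 8 tested genes of prostaglandin metabolism, 1 was called higher and 1 lower, and 5 had an unadjusted p under 0.05, with a median log2 fold change of -0.26. PTGR1, a prostaglandin reductase that uses NADPH, rose from 10.1 ± 1.27 to 50.5 ± 3.56 FPKM (log2 fold change 2.21, SE 0.22, adjusted p = 0.00127 by limma). PTGS2 (cyclooxygenase 2), which makes the prostaglandin H2 that AKR1C3 can reduce, fell from 67.8 ± 31.4 to 3.86 ± 1.59 FPKM (-3.76, SE 0.39, 0.00150). Of 5 tested genes of retinoid metabolism 0 were called in limma and 1 had an unadjusted p under 0.05, with RDH11 (4.06 ± 2.25 and 5.33 ± 1.65 FPKM) and ALDH1A1 (2.50 ± 1.61 and 7.44 ± 1.91 FPKM; 1.35, adjusted p = 0.0532) the most abundant. Of the partners of AKR1B1 in the polyol pathway, SORD stayed under the minimum level, at 0.213 ± 0.226 and 0.0997 ± 0.0243 FPKM, and KHK was at 0.0850 ± 0.0616 FPKM in A549 and 1.66 ± 1.10 FPKM in A549/DDP (1.22, SE 0.29, adjusted p = 0.0364, not called).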

How the data were processed

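The deposited values were FPKM per transcript in 1 table per library, computed by the authors. Their methods name Trimmomatic, HISAT2 (hg38) and Cufflinks, the submitters' processing notes name CASAVA, HISAT2, StringTie and DESeq2, and which of them made the values is not stated. No source says whether the quantification used the strand. Rows were named where gene ID and span matched GENCODE 44 (GRCh38), and gene sums were formed over all rows of a gene ID. Log2(FPKM + 1) was fitted with limma 3.58.1 (R 4.3.3) with a variance trend, as described above, and diffSplice compared rows within genes. The code was tested on simulated data. Shared 31-base words were counted over all GENCODE transcripts, and coding sequences were aligned with biopython 1.88 (Python 3.11.15). The members, gene lists and tests were chosen with earlier results of these data known. Named were all members, their rows that were called or had a mean of at least 1 FPKM, other AKR genes with values, up to 4 called genes per list or else the 2 most abundant, and the 5 gene sums most like AKR1C2. Alternatives were other pseudocounts, filters, scalings and tests, a replicate block, other sums, and leaving out each library.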

Additional observations from a re-analysis of the deposited data

How the results depend on the processing

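No pairing of the libraries by their numbers was seen, as the deviations of same-numbered libraries from their line means correlated at 0.01, -0.03 and -0.01. This cannot exclude that same-numbered libraries were handled together. With a replicate block, 0 rows and 2 gene sums of the family were called higher (AKR1C1 was lost), 3 rows differed within their gene and 1 gene of the lists was higher. The 5 row calls became 3 with a pseudocount of 0.1 FPKM, 0 with 0.01 FPKM, 0 with no filter, 3 with median-ratio scaling, 0 in limma's treat test against a 2-fold change, and 0 to 0 without each library in turn. The 3 gene sums called became 0 with no filter, 0 in the treat test and 1 to 3 without each library, and stayed 3 under quantile and median-ratio scaling, which took the median of all gene sums from 0.17 to 0.01 and 0.02. The 2 rows that differed within their gene became 1 with a pseudocount of 0.1 FPKM, 6 with no filter, 4 with quantile scaling, 0 with the log ratio, and 1 to 3 without each library. The 3 list genes called higher became 5 with a filter at 2 FPKM, 1 with median-ratio scaling and 0 to 2 without each library, and the 1 called lower 0 to 1. Each of the 5 tested members without a call changed sign under at least 1 alternative, and AKR7A2 was not tested. AKR1A1 turned to -0.078 with quantile and -0.21 with median-ratio scaling and ran from -0.25 to 0.20 without each library, AKR1B15 to -0.13 and -0.10 (-0.060 to 0.17), and AKR1E2 to -0.062 and -0.086 (-0.048 to 0.25). AKR1B1 turned to 0.0081 with quantile scaling and to 0.29 without its most abundant row, AKR1C3 to 2.44 without its own, and the difference of AKR1C3-205 from its gene to 0.46 with the log ratio. The cause was not tested. The read depth is unknown, so the counting error of low rows could not be given.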

Other observations

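No tested neighbour of the AKR genes was called. Over all gene sums 1.39% were called higher and 0.963% lower, so calls among so few genes would be rare in any case. Within 1 Mb of the AKR1C genes on chromosome 10, 10 other gene sums were tested and 0 were called higher or lower in limma, with a median log2 fold change of 0.29, and 3 had an unadjusted p under 0.05, against 27.1% of all gene sums. The highest was FBH1, a DNA helicase, at 4.03, 5.42 and 4.58 FPKM in A549 and 14.2, 11.1 and 15.5 FPKM in A549/DDP (1.36, SE 0.24, adjusted p = 0.0132). Within 1 Mb of the AKR1B genes on chromosome 7, 9 were tested and 0 called, with a median of 0.26 and 2 with an unadjusted p under 0.05.

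A transcript that the authors assembled, MSTRG.4947, spans AKR1C1 on its strand (chr10:4919169-4987468) and was counted apart from the gene. It was at 6.13, 14.2 and 12.7 FPKM in A549 and at 33.9, 35.4 and 33.5 FPKM in A549/DDP, above A549 in every library but not called (log2 fold change 1.63, SE 0.35, adjusted p = 0.0479 by limma).

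Over the 6 libraries, the gene sums most like that of AKR1C2 on the log2(FPKM + 1) scale were SELENOW, HGD, RARB, DDI2 and NTS, with Pearson r of 0.997, 0.997, 0.996, 0.995 and 0.995 among 10591 gene sums. The lines form 2 clusters, so these values mostly give the difference between the lines.

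The antioxidant response element, searched as TGACNNNGC on both strands, was found in 13.3% of 35116 RefSeq promoters of 300 bases (GRCh38.p14). Of the members, 8 had a promoter in that table, with AKR1B10 and AKR1B15 not in it. The motif was in 2 of their 12 promoters, both of AKR7A2. These overlap almost in full, so that they are the same stretch listed more than once. The motif's letters were not in the windows of AKR1C1, AKR1C2 and AKR1C3. An AKR1C3 window does cover the start of the exon that holds the start of its coding sequence. No window covers the starts of the called AKR1C2 rows or the far upstream first exon of AKR1C3. Sequence outside the windows of 300 bases was not searched, so control of these rows by NRF2 was not tested.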
